A study of Mus musculus with 4 samples.

Results

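The genes described are 9 of 55367 genes counted, taken by symbol with no threshold on a measured value, though with earlier results of these data known: Tfrc, Slc11a1, Slc40a1, Fth1, Ftl1, Hmox1, Blvrb, Mt1 and Mt2, which handle iron, heme and zinc. All 9 were found in the count tables and all 9 passed the filter on low counts. Iron enters cells on transferrin, is stored in ferritin shells, is set free from heme by heme oxygenase, and leaves through ferroportin. Macrophages recycle iron from the heme of other cells, and dividing cells take up iron through the transferrin receptor. Metallothioneins are small cysteine-rich proteins that bind zinc and copper.

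RNA was measured in 4 libraries of polyadenylated RNA from cells that the labels describe as sorted for CD45.2 and CD8 out of dissociated B16-F10 tumors, a mouse melanoma line grown in mice. The labels name them WT 1, WT 2, KO 1 and KO 2, that is 2 libraries a group. The series concerns Satb1 F/F mice with ThPOK-cre, which acts in the CD4 lineage, or with E8I-cre, which acts in mature CD8 T cells, and the labels do not say which of these the libraries labeled KO came from. Strain, age, sex and the number of animals behind each library are not given in the labels, so that p-values here measure the spread between these libraries, which may be technical.

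The libraries held 4017875 to 5382915 counts on genes. Satb1 itself, the targeted gene, received 7 and 5 counts under the label WT and 131 and 55 under the label KO, against the direction of the label, so that every direction below is that of the libraries as labeled. Per count on the T cell markers, Satb1 had 0.0230 and 0.00969 against 0.0116 and 0.00775, which overlapped. The X-linked Xist had 435 and 216 counts against 0 and 3, and 4 Y-linked genes had no counts in the libraries labeled WT, so that sex and group cannot be told apart. The macrophage or monocyte markers exceeded the T cell markers in all 4 libraries, against the label of the sort. The 12 macrophage or monocyte markers took 2.98% and 4.11% of gene counts in WT 1 and WT 2 and 2.39% and 3.15% in KO 1 and KO 2, with 6 of 12 lower and 1 of 12 higher in both libraries labeled KO. Lyz2 alone held 63.3% of these counts in KO 1 and 24.6% to 34.7% in the other libraries, and the other 11 markers took 2.25% and 2.76% against 0.876% and 2.06%. The 10 T cell markers took 0.00757% and 0.0121% against 0.252% and 0.132%, the 8 melanoma markers 0.0226% and 0.0268% against 0.239% and 0.132%, and the 6 fibroblast or endothelium markers 0.00207% and 0.00192% against 0.147% and 0.0203%. In both libraries labeled KO, 10 of 10, 7 of 8 and 5 of 6 genes of these lists were higher. The 8 dendritic cell markers took 0.00645% and 0.0111% against 0.0544% and 0.0424%, with 5 of 8 higher in both libraries labeled KO. The neutrophil list received 513 and 468 against 248 and 519 counts, the B cell list 64 and 182 against 21 and 80 with Pax5 at 0 throughout, the NK cell list 50 and 124 against 854 and 384 with 2 of 4 genes higher in both libraries labeled KO, and the erythroid list 24 and 4 against 0 and 224 with Slc4a1 and Tfr2 at 0 throughout. Of the NK cell list Klrk1, which CD8 T cells also express, held 47 and 114 against 805 and 347 counts, and Ncr1 and Klrb1c had 0 to 4 counts in each library. Fewer cells of a type and less RNA per cell cannot be told apart in such bulk libraries.

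Of the 9 genes, 4 carry an iron-responsive element, a hairpin in an untranslated region (UTR) that iron regulatory proteins bind when iron is low. Bound in the 5' UTR, the proteins hold back translation, and bound in the 3' UTR of Tfrc they protect the RNA from decay. The elements are shown because they divide the genes into those for storage and export and the gene for uptake. They were searched in GENCODE M21 transcripts as an unpaired C, 5 bases, the loop CAGTGN and 5 bases that pair with the first 5, with G-T pairs allowed. Such a match, with at least 4 of the 6 flanking bases paired as well, was found in 47 of 21877 protein coding genes (0.215%). Each is printed over 29 bases with the loop in capitals, in the strand of the gene and as DNA letters of GRCm38/mm10. The Fth1 element lies at chr19:9982732-9982760 on the plus strand, that of Ftl1 at chr7:45459779-45459807 and that of Slc40a1 at chr1:45925465-45925493, both on the minus strand, all in the 5' UTR. Tfrc had 4 matches in its 3' UTR on the plus strand, at chr16:32631219-32631247, chr16:32631598-32631626, chr16:32631663-32631691 and chr16:32631710-32631738.
Fth1: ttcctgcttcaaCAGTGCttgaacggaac
Ftl1: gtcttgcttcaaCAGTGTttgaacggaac
Slc40a1: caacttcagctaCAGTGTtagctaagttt
Tfrc at 32631219: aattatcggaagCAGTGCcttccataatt
Tfrc at 32631598: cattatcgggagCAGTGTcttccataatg
Tfrc at 32631663: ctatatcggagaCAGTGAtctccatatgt
Tfrc at 32631710: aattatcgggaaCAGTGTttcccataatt
The other 5 genes had no match in their transcripts.

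Compared with WT, 0 of the 9 genes passed the threshold of 0.05 in the libraries labeled KO (edgeR quasi-likelihood test, Benjamini-Hochberg adjustment over 11837 genes), where 0.574% of all genes tested did, 0.549% higher and 0.0253% lower. At an unadjusted p under 0.05 there were 2, namely Tfrc, which was higher, and Blvrb, which was lower, where the share over all genes was 13.7%. DESeq2 called 1, Tfrc, where it called 2.7% of the 13828 genes to which it gave an adjusted p. The fitted log2 fold change was below 0 for 6 of the 9 genes, with a median of -0.30 against 0.05 over all genes tested, and for 4 of the 9, with a median of 0.03, when library totals alone set the scale. In counts per 1000000 gene counts (CPM) the groups did not overlap for 4 of the 9 genes, where they did not for 48.4% of all genes tested. Tfrc and Mt2 were higher in both libraries labeled KO, where 35.9% of all genes tested were, and Slc11a1 and Blvrb were lower, where 12.6% were. Library sizes in the fits were multiplied by TMM factors (trimmed mean of M-values) of 0.831, 0.951, 1.18 and 1.07 for WT 1, WT 2, KO 1 and KO 2, so that fitted log2 fold changes lie below those between the CPM printed here. With library totals alone the median over all genes tested moved from 0.05 to 0.39 and the share of genes fitted higher from 52.6% to 68.7%.

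**Figure D1:**
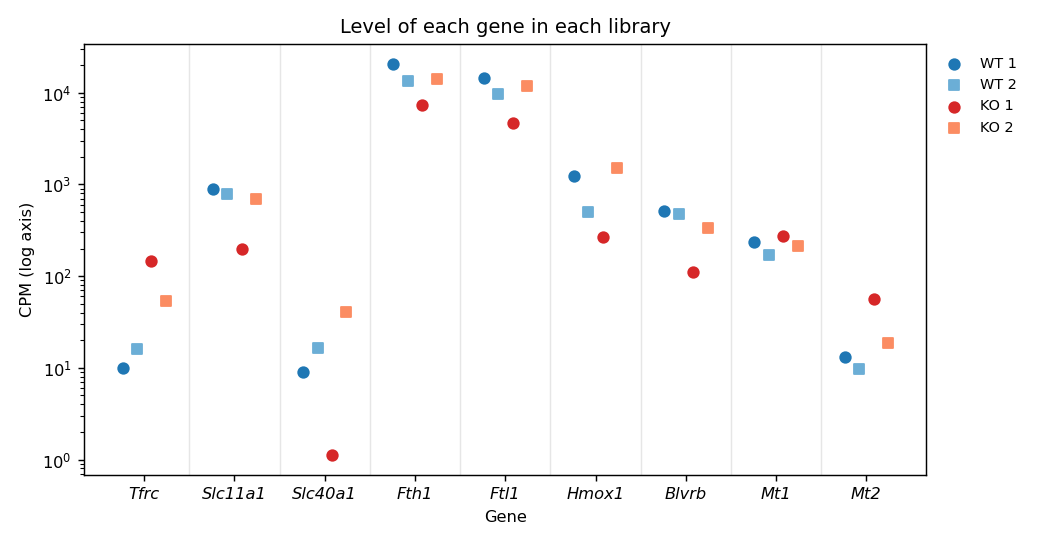
Level of each of the 9 genes in each library, in CPM on a log axis, with WT 1 and WT 2 in blue and KO 1 and KO 2 in red and orange, 1 point per library. KO 1 was the lowest library for Slc11a1, Slc40a1, Fth1, Ftl1, Hmox1 and Blvrb and the highest for Tfrc, Mt1 and Mt2.

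The library labeled KO 1 stood apart. It had the lowest CPM of the 4 libraries for 6 of the 9 genes and the highest for the other 3, though on the TMM scale Mt1 was highest in WT 1 (284 normalized CPM, 236 in KO 1). The summed share of the 11 macrophage or monocyte markers other than Lyz2 was also lowest in KO 1. Of these markers Mrc1 and Cd14 were instead lowest in WT 1, with 107 and 597 CPM against 227 and 763 CPM in KO 1. Per 100 counts on all 12 markers, KO 1 was still the lowest library for the 6 genes that were lowest there in CPM. Fth1 then had 30.9 in KO 1 against 32.9 in WT 2, Ftl1 19.5 against 23.3 and Hmox1 1.12 against 1.23. Per 100 counts on the 11 markers without Lyz2, a measure chosen after seeing the data, KO 1 was lowest for Slc11a1, Slc40a1 and Blvrb. Fth1, Ftl1 and Hmox1 were lowest in WT 2 on that measure. The part of macrophage RNA in the levels was not otherwise tested. Without KO 2, so that KO 1 alone stood for its group and was assumed to vary like the libraries labeled WT, 7 of the 9 genes were past the threshold, all but Fth1 and Mt1, where 9.71% of 12852 genes tested were. Without KO 1 none was (0 of 9), where 0.998% of 12326 genes were.

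**Figure D2:**
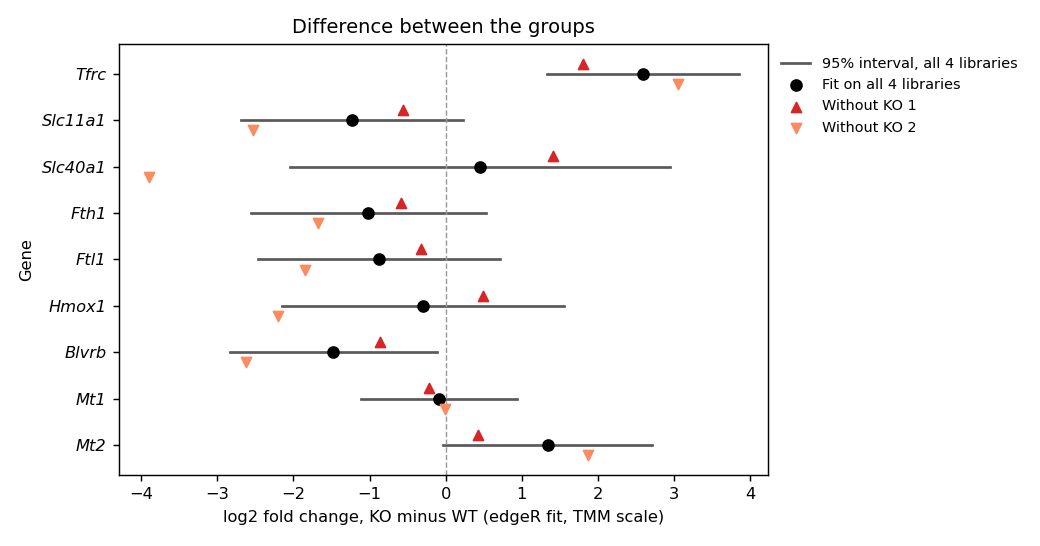
Fitted log2 fold change of each gene, KO minus WT, on the TMM scale, with its 95% interval from all 4 libraries (black) and the values without KO 1 (red triangles) and without KO 2 (orange triangles). Hmox1 and Slc40a1 lay on opposite sides of 0 without KO 1 and without KO 2. The other genes kept their side of 0 in all 3 fits, Tfrc and Mt2 above it and the rest below it.

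Iron uptake came first. Tfrc (ENSMUSG00000022797.16, chromosome 16, 32608920 to 32632794, plus strand) encodes transferrin receptor 1, which carries transferrin-bound iron into cells. It had 40 and 68 counts in WT 1 and WT 2 and 648 and 290 in KO 1 and KO 2, or 9.96, 16.0, 145 and 53.9 CPM. Both libraries labeled KO lay above both labeled WT, and KO 1 was 2.68 times KO 2. The means were 13.0 ± 4.24 CPM (SD, n = 2) and 99.3 ± 64.2 CPM (SD, n = 2). The fitted log2 fold change was 2.59 with an SE of 0.56 and a 95% interval from 1.33 to 3.84, and missed the threshold (adjusted p = 0.0847, edgeR). It was past the threshold when every gene with a count was tested (edgeR adjusted p = 0.000551, with 2.74% of 21241 genes called) and in DESeq2 (adjusted p = 0.0016), with log2 fold changes of 2.54 and 2.58. It was also past it without KO 2 (3.05, edgeR adjusted p = 0.00177) and with a block for the replicate number (2.46, edgeR adjusted p = 0.0289), although the labels do not say that the numbers pair libraries. Over all alternatives the adjusted p reached 0.520, without WT 1. Without KO 1 the value was 1.80.

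The summed markers of T cells, melanoma and stroma were also higher in both libraries labeled KO. Per 100 counts on the macrophage list, Tfrc had 0.0334 and 0.0388 (WT) against 0.605 and 0.171 (KO). Without Lyz2 it had 0.0443 and 0.0577 against 1.65 and 0.262. That list took 2.39% to 4.11% of gene counts, or 0.876% to 2.76% without Lyz2, while the CPM of Tfrc spanned 14.5 times. Scaling by it could do little to bring the groups together, so that their lack of overlap there decides nothing. The T cell list had 304 and 516 counts against 11287 and 7099. The melanoma list had 907 and 1140 against 10728 and 7081, and the stromal list 83 and 82 against 6604 and 1094. The part of these cells in the difference was not tested.

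**Figure D3:**
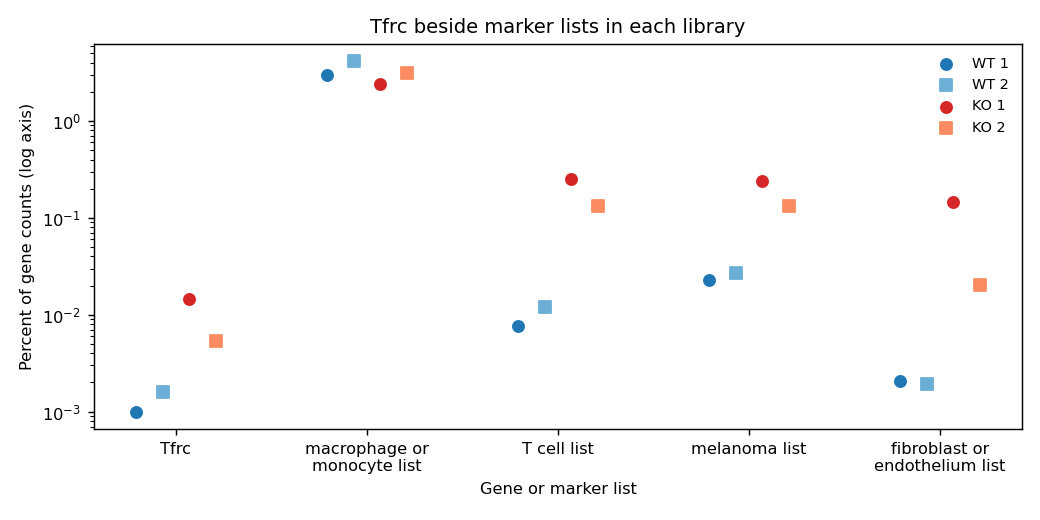
Percent of gene counts on Tfrc and on 4 marker lists in each library, on a log axis, 1 point per library. Tfrc and the T cell, melanoma and stromal lists were each higher in both libraries labeled KO, with KO 1 above KO 2, while the macrophage or monocyte list ran from 2.39% to 4.11%, with most of its counts in KO 1 on Lyz2.

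Slc11a1 (ENSMUSG00000026177.11, chromosome 1, 74375195 to 74386062, plus strand) encodes a pump that moves iron and manganese out of the phagosomes of macrophages. Its levels were 888 and 785 CPM in WT 1 and WT 2 and 197 and 686 CPM in KO 1 and KO 2. The libraries labeled WT and KO 2 lay close together and KO 1 far below. The means were 837 ± 72.7 CPM (SD, n = 2) and 442 ± 346 CPM (SD, n = 2), with a log2 fold change of -1.23, an SE of 0.65 and a 95% interval from -2.68 to 0.23 (edgeR adjusted p = 0.440). Without KO 1 the log2 fold change was -0.57 and without KO 2 it was -2.53. Per 100 counts on the macrophage list the groups overlapped, with 2.98 and 1.91 against 0.826 and 2.18 counts, and without Lyz2 with 3.96 and 2.84 against 2.25 and 3.34.

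Slc40a1 (ENSMUSG00000025993.10, chromosome 1, 45908068 to 45926523, minus strand) encodes ferroportin, the exporter of iron. WT 1 held 36 counts, WT 2 held 71, KO 1 held 5 and KO 2 held 218. The lowest and the highest library were thus both labeled KO, 40.5 CPM in KO 2 being 36.3 times the 1.12 CPM of KO 1, and the libraries labeled WT lay between them at 8.96 and 16.7 CPM. The means were 12.8 ± 5.45 CPM (SD, n = 2) and 20.8 ± 27.8 CPM (SD, n = 2). The fitted log2 fold change was 0.46 (SE 1.11, edgeR adjusted p = 0.886), and became 1.41 without KO 1 and -3.90 without KO 2. The erythroid list, which is led by hemoglobin genes, was also lowest in KO 1, with 0 counts, and highest in KO 2, with 224. Between the libraries labeled WT the order was the other way, with 24 counts on the list in WT 1 and 4 in WT 2. The part of erythroid RNA in the levels of Slc40a1 was not tested.

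Fth1 and Ftl1 encode the heavy and light chains of ferritin, the heavy chain oxidizing the iron that enters the shell. They were among the most abundant transcripts of the libraries: their summed share of gene counts was 3.54% and 2.31% in the WT libraries and 1.20% and 2.59% in KO 1 and KO 2. By counts Fth1 ranked 3, 3, 6 and 1 among all genes in that order and Ftl1 ranked 4, 7, 11 and 3. The share in KO 1 was the lowest for both genes.

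Fth1 (ENSMUSG00000024661.7, chromosome 19, 9980598 to 9985098, plus strand) had 20779 and 13520 CPM in WT 1 and WT 2 and 7374 and 14038 CPM in KO 1 and KO 2. The groups overlapped in CPM, since KO 2 lay just above WT 2. On the TMM scale KO 2, at 13188 normalized CPM, lay just below WT 2 at 14268. The means were 17149 ± 5133 CPM (SD, n = 2) and 10706 ± 4712 CPM (SD, n = 2), and the fit gave -1.02 on the log2 scale (SE 0.68, 95% interval -2.55 to 0.52, edgeR adjusted p = 0.536). It became -0.58 without KO 1, -0.59 without WT 1 and -1.68 without KO 2.

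Ftl1 (ENSMUSG00000050708.16, chromosome 7, 45457944 to 45459884, minus strand) had 14607 and 9577 CPM against 4650 and 11822 CPM, so that KO 2 lay between the libraries labeled WT. The means were 12092 ± 3557 CPM (SD, n = 2) and 8236 ± 5072 CPM (SD, n = 2). The fit gave -0.88 on the log2 scale (SE 0.71, 95% interval -2.47 to 0.71, edgeR adjusted p = 0.604), which became -0.33 without KO 1, -0.46 without WT 1 and -1.84 without KO 2. The counts of Ftl1 are uncertain, because it has near-identical copies and an overlapping gene on the other strand. The 3 copy rows Ftl1-ps1, Ftl1-ps2 and Ftl2-ps received counts equal to 2.65% to 5.04% of those of Ftl1 in the same library. Gm10252, which starts inside Ftl1 and runs on the other strand (chromosome 7, 45459469 to 45460300), received 51098, 35474, 16908 and 55042 counts, or 0.871, 0.869, 0.812 and 0.865 counts per count of Ftl1. Whether counting used strand is not given in the sources used here, so that reads of the overlapping genes cannot be told apart. With the counts of Gm10252 added to Ftl1 the log2 fold change was -0.90, and with the copies added it was -0.91. The rows named as copies of Fth1 held 1 to 6 counts per library in all.

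Within each library the ferritin chains kept a narrow ratio. Per count of Ftl1, Fth1 had 1.42 and 1.41 under the label WT against 1.59 in KO 1 and 1.19 in KO 2, so that the highest ratio was 1.34 times the lowest, while the level of Fth1 itself spanned 2.82 times and that of Ftl1 3.14 times. The groups overlapped. The ratio of Tfrc to Slc40a1, uptake to export, was 1.11, 0.958 and 1.33 in WT 1, WT 2 and KO 2 and 129.6 in KO 1, where Slc40a1 had 5 counts.

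**Figure D4:**
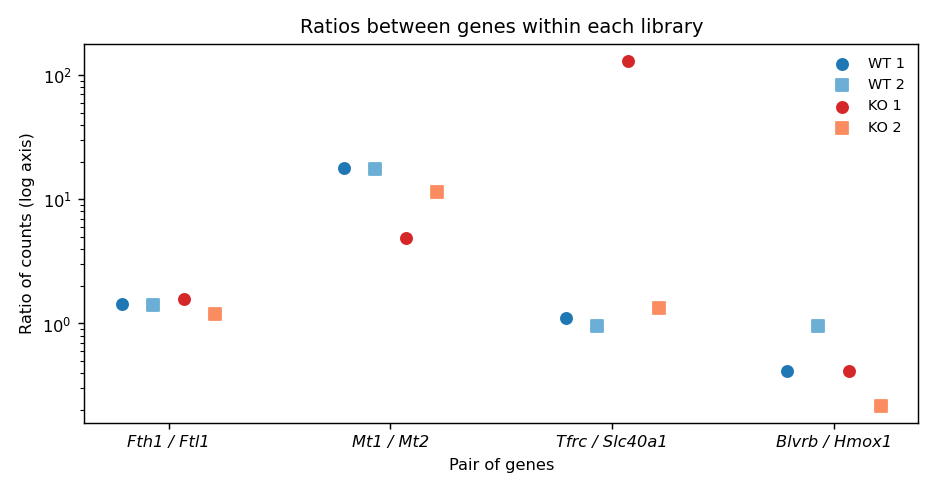
Ratios of counts between pairs of genes within each library, on a log axis, 1 point per library. Fth1 to Ftl1 stayed between 1.19 and 1.59, Tfrc to Slc40a1 reached 129.6 in KO 1 alone, and Mt1 to Mt2 was 17.8 and 17.7 in the libraries labeled WT against 4.86 and 11.5 in those labeled KO.

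Heme breakdown was examined next. Hmox1 (ENSMUSG00000005413.8, chromosome 8, 75093621 to 75100589, plus strand) encodes heme oxygenase 1, which opens the heme ring and yields iron, carbon monoxide and biliverdin. Its levels were 1247 and 506 CPM in WT 1 and WT 2 and 267 and 1524 CPM in KO 1 and KO 2, so that in CPM the libraries labeled KO enclosed those labeled WT. On the TMM scale WT 1 was the highest, with 1506 normalized CPM against 1431 in KO 2. KO 2 was 5.72 times KO 1, and WT 1 was 2.46 times WT 2. The means of 877 ± 524 CPM (SD, n = 2) and 895 ± 889 CPM (SD, n = 2) differed by less than the spread between libraries. The log2 fold change was -0.30 with an SE of 0.82 and a 95% interval from -2.14 to 1.55 (edgeR adjusted p = 0.902), and it became 0.48 without KO 1, 0.61 without WT 1, -0.88 without WT 2 and -2.20 without KO 2.

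Blvrb (ENSMUSG00000040466.16, chromosome 7, 27447978 to 27466144, plus strand) encodes biliverdin reductase B, which reduces flavins and the biliverdin of fetal heme breakdown. It had 513 and 481 CPM in the libraries labeled WT, which differed by 1.07 times, and 110 and 332 CPM in KO 1 and KO 2. Both libraries labeled KO lay below both labeled WT. The means were 497 ± 22.7 CPM (SD, n = 2) and 221 ± 157 CPM (SD, n = 2), and the fit gave -1.47 on the log2 scale (SE 0.60, 95% interval -2.83 to -0.11), which missed the threshold (edgeR adjusted p = 0.327, unadjusted p = 0.0365). Without KO 1 the log2 fold change was -0.86 and without KO 2 it was -2.62. Per 100 counts on the macrophage list Blvrb had 1.72 and 1.17 against 0.461 and 1.06 counts. Without Lyz2 the values were 2.29 and 1.74 against 1.26 and 1.62, closer together, with KO 2 just below WT 2. Hmox1 and Blvrb did not keep a fixed ratio: Blvrb had 0.412, 0.951, 0.414 and 0.218 counts per count of Hmox1 in WT 1, WT 2, KO 1 and KO 2.

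Mt1 and Mt2 encode metallothioneins 1 and 2 and lie side by side on the plus strand of chromosome 8, with 5513 bases between them. Their promoters are shown because zinc acts on them through metal response elements (MRE), which the factor MTF1 binds. The letters TGCACNC or TGCGCNC were searched on both strands in RefSeq windows of 300 bases (GRCm38.p6), from 250 before to 50 after the start. There were 3 matches in the window of Mt1 and 4 in that of Mt2. Of 32851 windows 25.7% held at least 1 match, 1.97% at least 3 and 0.517% at least 4. A search for the antioxidant response element, TGACNNNGC, matched once in Mt2 and in 12.4% of all windows. RefSeq windows were at hand for 7 of the 9 genes, Hmox1 and Slc40a1 having none. Among the other 5, Tfrc held MRE letters, 2 overlapping matches in 1 of its windows, and the other 4 held none. The stretches shown first end where the earliest annotated start begins, that of GENCODE for Mt1 (chr8:94178839-94179081, 243 bases) and that of RefSeq for Mt2 (chr8:94172368-94172617, 250 bases), with MRE matches in capitals. The other 2 matches of Mt1 lie at chr8:94179089-94179117, and the other of Mt2 at chr8:94172620-94172630.
Mt1 before the start: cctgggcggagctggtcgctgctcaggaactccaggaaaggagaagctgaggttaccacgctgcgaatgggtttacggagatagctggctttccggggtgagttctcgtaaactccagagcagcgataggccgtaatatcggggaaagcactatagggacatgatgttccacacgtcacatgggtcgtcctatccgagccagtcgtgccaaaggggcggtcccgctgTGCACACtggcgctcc
Mt1 at the start: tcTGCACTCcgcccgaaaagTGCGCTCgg
Mt2 before the start: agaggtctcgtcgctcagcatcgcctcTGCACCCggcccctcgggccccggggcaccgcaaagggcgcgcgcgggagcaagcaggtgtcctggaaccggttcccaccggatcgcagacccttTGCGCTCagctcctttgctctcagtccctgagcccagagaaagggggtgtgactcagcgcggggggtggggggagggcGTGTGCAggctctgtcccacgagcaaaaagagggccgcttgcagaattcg
Mt2 at the start: tcGTGCGCAgg

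Mt1 (ENSMUSG00000031765.8, 94179082 to 94180327) had 235 and 170 CPM in WT 1 and WT 2 and 277 and 213 CPM in KO 1 and KO 2. The groups overlapped, and over the 4 libraries its level spanned 1.63 times, the least of the 9 genes. The means were 203 ± 45.8 CPM (SD, n = 2) and 245 ± 45.2 CPM (SD, n = 2). The log2 fold change was -0.09 with an SE of 0.45 and a 95% interval from -1.11 to 0.93 (edgeR adjusted p = 0.954), and became 0.28 with library totals alone, 0.22 without WT 1, -0.22 without KO 1, -0.43 without WT 2 and -0.01 without KO 2.

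Mt2 (ENSMUSG00000031762.7, 94172664 to 94173568) had 53 and 41 counts against 255 and 100, or 13.2, 9.62, 56.9 and 18.6 CPM. The means were 11.4 ± 2.52 CPM (SD, n = 2) and 37.8 ± 27.1 CPM (SD, n = 2). Both libraries labeled KO lay above both labeled WT, and KO 1 was 3.06 times KO 2. The log2 fold change was 1.34 with an SE of 0.61 and a 95% interval from -0.03 to 2.71 (edgeR adjusted p = 0.373), and it became 0.42 without KO 1, 0.98 without WT 2 and 1.86 without KO 2. Relative to Mt2, Mt1 was lower in both libraries labeled KO, with 4.86 and 11.5 counts per count of Mt2 against 17.8 and 17.7. The counts of Mt2 are uncertain, because 73.5% of its exonic bases also lie in Gm45774 on the other strand (94170748 to 94173412), which received 58, 41, 235 and 97 counts, or 0.922 to 1.09 per count of Mt2. With the counts of Gm45774 added, the log2 fold change of Mt2 was 1.25. The T cell, melanoma and stromal lists were higher in the same libraries, and their part in the level of Mt2 was not tested.

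Levels were compared between genes per kilobase of the principal transcript. The means over the 4 libraries were 10500 CPM per kb for Ftl1, 9322 for Fth1, 565 for Hmox1, 407 for Mt1, 350 for Blvrb, 276 for Slc11a1, 48.1 for Mt2, 11.5 for Tfrc and 4.99 for Slc40a1. The lowest library of either ferritin chain, at 4803 CPM per kb, lay above the highest library of any other gene, at 971. The order of Ftl1 and Fth1 was not fixed, since Fth1 was higher in KO 1, and the levels of Hmox1, Mt1, Blvrb and Slc11a1 overlapped one another across libraries, as did those of Mt2, Tfrc and Slc40a1 with their neighbors in the order. Per kilobase of all annotated exons joined, Ftl1 had 7585 and Fth1 4015 CPM.

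The genes with the most similar pattern over the 4 libraries were found by the root mean square distance of log2(CPM + 1) from each gene's own mean, among 6287 genes with a mean of at least 20 CPM. With 4 libraries such likeness is a description. Among the 9 genes the closest pairs were Slc11a1 with Blvrb, at a distance of 0.12, and Fth1 with Ftl1, at 0.15. Hmox1 lay closest to Hilpda, a gene for a lipid droplet protein induced by low oxygen, which had 599, 231, 114 and 680 CPM in WT 1, WT 2, KO 1 and KO 2 (distance 0.06), and then to Tmem8 (0.16). Slc11a1 lay closest to Tmem37 (0.05) and to Grn, the gene for the lysosomal protein progranulin (0.09), Blvrb to Upp1 (0.06) and Uap1l1 (0.08), and Fth1 to Tmem115 and Tmem140 (both 0.05). Tfrc lay closest to D16Ertd472e (0.11) and Rbm25 (0.12), and Mt1 to Tcp11l1 (0.01) and Prkrip1 (0.03). The nearest to Mt2 was Gm45774 (0.09), followed by Fnip1 (0.10). Those nearest to Ftl1 were Gm45752 (0.02) and Gm10252 (0.04). Slc40a1 was below the minimum.

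Other genes of iron, heme and metal handling were described from 7 lists of 71 genes, of which 57 were tested. Of these 0 were past the threshold, against 0.574% of all genes tested, and 2 had an unadjusted p under 0.05, both lower in the libraries labeled KO, against 13.7% (edgeR quasi-likelihood test). DESeq2 called 1 of the listed genes, Steap4, which was not among the 57, against 2.7% of all genes. The fitted log2 fold change was above 0 for 24 of 57, with a median of -0.18 against 0.05 over all genes tested. In CPM 15 were higher and 6 lower in both libraries labeled KO, to be read against 35.9% and 12.6% of all genes. The lowest fitted log2 fold changes were those of Slc39a1, a zinc importer of the cell surface (-1.84, edgeR adjusted p = 0.224), Lrp1, the receptor that takes up heme bound to hemopexin (-1.23, adjusted p = 0.351), and Slc25a28, which brings iron into mitochondria (-0.92, adjusted p = 0.450). Slc39a1 and Lrp1 had the 2 unadjusted p-values under 0.05. The highest were those of Cd163, the receptor for hemoglobin bound to haptoglobin (1.94, adjusted p = 0.388), Atp7a, a copper pump (1.46, adjusted p = 0.411), and Abcg2, an exporter of porphyrins and many drugs (1.30, adjusted p = 0.510). Cd163 had 11, 17 and 18 counts in WT 1, WT 2 and KO 1 and 147 in KO 2, so that 1 library set its value. None of these 6 genes was past the threshold.

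By list, the medians were -0.21 for iron uptake, recycling and transport (9 genes tested), 0.05 for iron sensing and ferritin turnover (6), -0.13 for heme synthesis (8), -0.54 for heme breakdown and transport (6), -0.30 for mitochondrial iron and iron-sulfur clusters (8), 0.22 for the antioxidant response that shares regulators with Hmox1 (10) and 0.05 for zinc and copper handling (10). The 8 genes of heme synthesis lay between -0.42 for Urod and 0.33 for Fech. In the antioxidant list 5 of 10 genes were higher in CPM in both libraries labeled KO, where 35.9% of all genes were, and none of the 10 was past the threshold. Among the 5 was Nfe2l2, the gene for the regulator NRF2, with 64.7 and 150 against 324 and 158 CPM (edgeR adjusted p = 0.501). The TMM scale lowers the libraries labeled KO relative to those labeled WT. On it the fitted log2 fold changes of the 5 were 0.84 for Nfe2l2, 0.98 for Gclc and 0.62 for Gclm. They were 0.84 for Txnrd1 and 0.02 for Prdx1. Hmox2, the constitutive heme oxygenase, had 1070 and 1306 against 842 and 1059 counts (log2 fold change -0.90, edgeR adjusted p = 0.393), and Blvra, the main biliverdin reductase of adults, 463 and 754 against 513 and 606 (-0.68, adjusted p = 0.501). Steap4, an iron and copper reductase too low to be tested in the main comparison, had 0 and 0 counts against 72 and 11. It was named after its values were seen, because it was the gene that DESeq2 called.

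**Figure D5:**
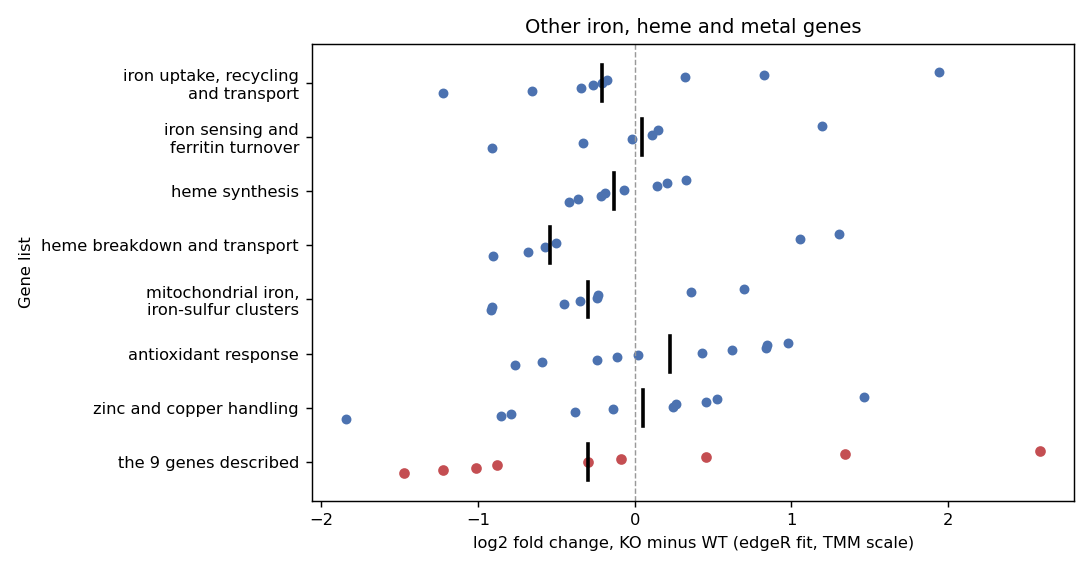
Fitted log2 fold change, KO minus WT, of 57 other genes of iron, heme and metal handling by list (blue, 1 point per gene) and of the 9 genes described (red), with the median of each list as a black bar. The medians of the 7 lists ran from -0.54 to 0.22, and 0 of the 57 genes were past the threshold.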

How the data were processed

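For each library the authors deposited a table of raw counts by gene symbol, whole and not normalized. Per the labels, polyadenylated RNA libraries (NEBNext Ultra II) were aligned to mm10 with HISAT2 2.1.0 and counted with HTSeq 0.11.0. The annotation and strand setting are not given in the sources used here. Summary rows (unaligned, ambiguous and the like) were dropped, and reads on genes were 20.5% to 28.8% of the reads in a table. Identifiers, positions and lengths came from GENCODE M21.

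CPM used the total over gene rows. Tests used R 4.3.3 and edgeR 4.0.16. The filter, filterByExpr, asked for 15 counts in total. It also asked, in at least 2 libraries of either group, for the CPM that 10 counts give at the median library size. TMM factors, the quasi-likelihood fit and F test (glmQLFit, glmQLFTest) on group alone and a prior count of 0.125 followed. Two-sided p-values were adjusted over 11837 genes. The SE is the log2 fold change divided by the square root of F. DESeq2 1.42.0, other scalings and filters, thinning, a replicate block and leaving out each library were alternatives. Crossed blocks and summed partner or copy rows were added after seeing the data. Scripts were tested on simulated data.

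All 9 genes were named with their values. Of the other lists every gene past the threshold was to be named, or, with fewer than 6, the 3 largest rises and falls. The genes and lists were chosen with earlier results of these data known. The listed symbol Tf matched no row. No pair of libraries agreed within sampling noise (chi-square of at least 24.4 per degree of freedom).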

Additional observations from a re-analysis of the deposited data

How the results depend on the processing

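Under 17 alternatives Fth1, Ftl1, Slc11a1 and Blvrb stayed lower and Tfrc and Mt2 higher in the libraries labeled KO. Among the values of the 9 genes 134 kept direction and side of the threshold, 11 kept direction and passed it, and 8 changed sign. With library totals alone Hmox1 became 0.033 and Mt1 0.28 on the log2 scale. Of the 9 genes 1 was called without a filter on low counts and 1 by DESeq2 (Tfrc in both), and of the other iron, heme and metal genes 2 (Slc39a1, Steap4) and 1 (Steap4). Leaving out 1 library gave 0 to 7 of the 9 genes and 0 to 4 of the others, with 7 and 4 without KO 2. Hmox1 then ranged from -2.20 to 0.61 (0.48 without KO 1), Slc40a1 from -3.90 to 1.41 and Mt1 from -0.43 to 0.22. Over all genes 68 of 11837 (0.574%) were called, 583 of 21241 (2.74%) without the filter, 374 of 13828 (2.7%) by DESeq2, 134 with library totals alone, 123 without KO 1 and 1248 without KO 2. The cause of these differences was not tested. With 2 libraries a group, calls rest on the spread shared across genes.

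The labels do not say that replicate numbers pair libraries, and same-numbered libraries deviated oppositely (r = -0.179 across 11837 genes, which are not independent). With the replicate block 1 of the 9 genes (Tfrc) and 215 of all genes were called, and Slc40a1 became -0.85. With crossed numbers, chosen after seeing the data, 2 of the 9 (Blvrb, Tfrc), 1 of the other iron, heme and metal genes (Slc39a1) and 647 of all genes were called, and Slc40a1 became -0.75.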
